A study of Mus musculus with 24 samples.

Results

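The retinoblastoma pocket proteins, the E2F factors they bind, and the later-acting cell cycle activators Foxm1 and Mybl2 were followed through the differentiation of a mouse muscle cell line. The 8 genes were Rb1, Rbl1, Rbl2, E2f1, E2f3, Tfdp1, Foxm1 and Mybl2. Their members were the probe sets annotated to 1 of these symbols alone, which gave 14 of the 12422 probe sets that were not controls. Rb1, E2f1, Foxm1 and Mybl2 had 2 probe sets each, Tfdp1 had 3, and Rbl1, Rbl2 and E2f3 had 1 each. All 14 passed the filter on dim probe sets.

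The mouse myoblast line C2C12 divides in growth conditions and fuses into myotubes when it differentiates. Total RNA was measured on 24 Affymetrix MG_U74Av2 arrays, 3 for each of 8 days counted from the switch to differentiating medium. Cells of days -2 and -1 were proliferating, those of day 0 were confluent at the medium switch, and those of days 2, 4, 6, 8 and 10 were kept in the medium for that many days. Every group was the same untreated line, its media were not described, the labels did not state whether day 0 RNA preceded the switch, and nothing said that the 3 replicates of a day came from separate cultures. The p-values therefore measure only the spread between these arrays, and the number of arrays limits the precision.

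Rb1, Rbl1 (p107) and Rbl2 (p130) are the pocket proteins, which bind E2F factors and hold genes of DNA replication silent until cyclin-dependent kinases phosphorylate them. E2F proteins bind DNA as heterodimers with a DP partner such as Tfdp1. In the repressive DREAM complex, p130 or p107 joins an E2F and the MuvB core, and in dividing cells MuvB binds B-MYB (Mybl2) and FOXM1 to switch on genes of mitosis. In skeletal muscle, pRB is known for its part in the lasting withdrawal of myotubes from the cell cycle.

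Promoter windows from RefSeq (GRCm38.p6), 250 bases before to 50 after an annotated start, were found for 6 of the 8 genes, namely Rbl1, Rbl2, E2f1, E2f3, Tfdp1 and Mybl2, and gave 8 windows. The only E2f1 window, on the minus strand at chr2:154569377-154569676, lay inside the annotated gene, which reaches 154569892. The Mybl2 window also lay inside its gene, which begins at 163054327. Sequence before these outer gene ends was not searched. An E2F site (TTTGGCGC, TTTCCCGC, TTTGCCGC or TTTCGCGC, on either strand) was present in windows of Rbl1, Tfdp1 and E2f3, against 2.26% of all 32851 windows and 2.6% of all genes in the table. The shorter E2F core GGCGGGA, added to the search after the results were seen, was present in those of Mybl2, Tfdp1 and E2f3, against 11.3% of all windows and 12.7% of all genes. The 2 motifs overlapped in E2f3. The windows below are those of p107 and p130, whose changes are compared, and of Tfdp1 and Mybl2, whose windows held 1 or both motifs, and capitals mark the E2F site (Rbl1 and the last block of Tfdp1) and the E2F core (Mybl2 and the earlier blocks of Tfdp1). The Rbl1 window was on the minus strand at chr2:157204485-157204784, that of Tfdp1 on the plus strand at chr8:13338501-13338800, that of Mybl2 on the plus strand at chr2:163054385-163054684, and that of Rbl2 on the plus strand at chr8:91069807-91070106.
Rbl1: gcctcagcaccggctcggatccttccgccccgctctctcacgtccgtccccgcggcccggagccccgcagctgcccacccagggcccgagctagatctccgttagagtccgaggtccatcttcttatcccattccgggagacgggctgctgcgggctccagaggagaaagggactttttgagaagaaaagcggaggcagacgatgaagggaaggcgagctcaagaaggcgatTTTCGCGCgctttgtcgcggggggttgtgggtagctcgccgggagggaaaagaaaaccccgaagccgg
Tfdp1: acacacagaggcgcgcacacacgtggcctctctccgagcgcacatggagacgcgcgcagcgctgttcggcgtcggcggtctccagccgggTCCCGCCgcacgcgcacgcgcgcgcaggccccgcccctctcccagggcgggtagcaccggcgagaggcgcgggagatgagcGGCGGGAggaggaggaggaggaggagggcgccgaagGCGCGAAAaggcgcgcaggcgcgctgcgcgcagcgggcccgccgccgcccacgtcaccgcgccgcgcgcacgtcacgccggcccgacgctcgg
Mybl2: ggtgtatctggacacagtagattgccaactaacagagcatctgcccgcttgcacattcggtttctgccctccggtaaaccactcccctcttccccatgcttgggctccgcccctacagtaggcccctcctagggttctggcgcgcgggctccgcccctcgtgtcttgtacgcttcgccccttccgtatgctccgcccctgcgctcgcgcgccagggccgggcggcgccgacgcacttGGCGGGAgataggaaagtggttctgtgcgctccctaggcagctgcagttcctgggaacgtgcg
Rbl2: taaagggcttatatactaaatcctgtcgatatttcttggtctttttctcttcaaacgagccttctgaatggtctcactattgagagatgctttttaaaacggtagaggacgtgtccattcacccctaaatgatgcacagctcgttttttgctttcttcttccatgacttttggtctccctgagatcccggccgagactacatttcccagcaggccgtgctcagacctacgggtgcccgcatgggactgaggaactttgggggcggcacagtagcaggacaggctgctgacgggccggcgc
The Rbl1 site TTTCGCGC began 18 bases before the start, and the Tfdp1 site, read as GCGCGAAA in this window, began 43 bases before it. The Mybl2 core began 13 bases before the start. The Rbl2 window held neither motif. The cell cycle homology region (TTTGAA or TTCGAA) was present in windows of Rbl2 and E2f3, against 19.2% of all windows and 21.7% of all genes. The forkhead site TAAACA was present in 0 of the 8 windows, against 13.4% of all. The CCAAT box (CCAAT) was present in a window of E2f3, against 37.4% of all windows and 41.1% of all genes. The GC box (GGGCGG) was present in windows of all 6 genes, against 35.7% of all windows and 38.2% of all genes. These are matches of letters only.

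Intensities are on the linear scale on which the authors deposited them, and a change is the difference between mean log2 intensities of days, given ± its standard error from limma. A change was called at a Benjamini-Hochberg adjusted p under 0.05 over all 8484 tested probe sets. The gene counts that follow take 1 probe set a gene, the one with the highest mean. Any difference among the 8 days was called for Rb1, Rbl1, Rbl2, Tfdp1 and Foxm1, 5 of the 8 genes, where 55.1% of all tested probe sets were called. Counted by probe set, 11 of 14 were called, and the remaining 3 were E2f3 93405_at, E2f1 161427_f_at and Mybl2 161160_f_at.

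**Figure D1:**
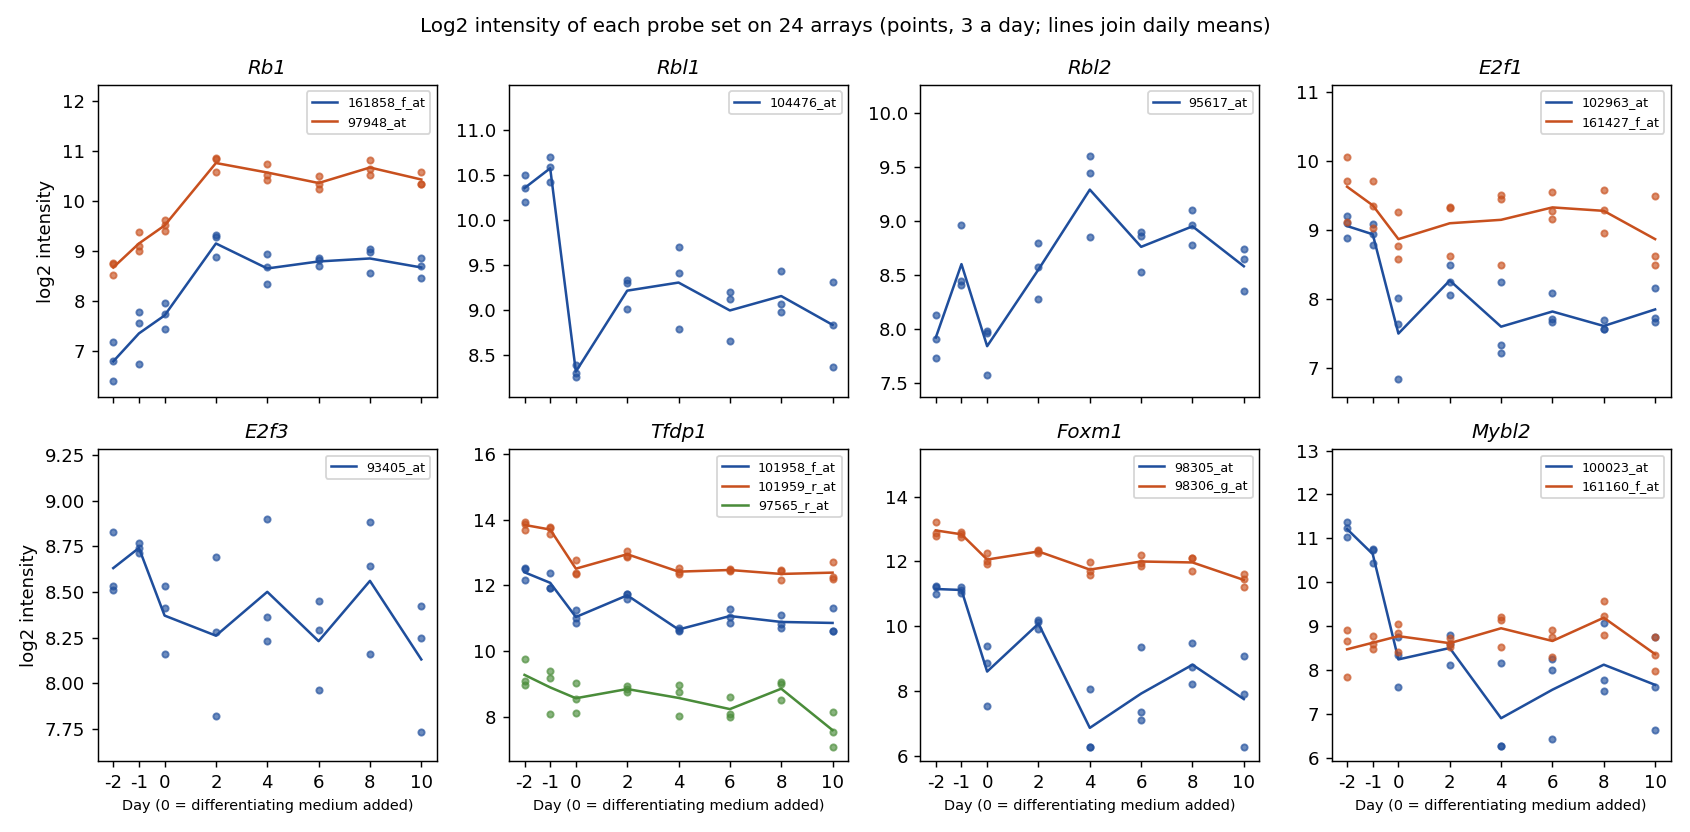
Log2 intensity (vertical axes, a separate scale for each gene) of the 14 probe sets against day (horizontal axes, day 0 being the switch to differentiating medium). Points are the 24 arrays, 3 a day, and lines join daily means; Rb1 climbs to day 2 and stays there, Rbl1 falls at day 0, and the 2 probe sets of Mybl2 run apart.

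Rb1 rose from day -2 to day 0 and again from day 0 to day 2. With probe set 97948_at its intensities were 430.8, 426.2 and 367.1 on day -2, 543.1, 509.8 and 662.0 on day -1, and 735.2, 674.6 and 788.2 on day 0. They were 1834.6, 1873.4 and 1531.9 on day 2, 1482.9, 1375.4 and 1711.6 on day 4, and 1445.6, 1301.4 and 1215.2 on day 6. Days 8 and 10 gave 1816.3, 1483.2 and 1608.2, and 1301.0, 1308.6 and 1531.6. Every array from day 2 on lay above every array of days -2 to 0, and the ranges of days -2, -1 and 0 did not overlap each other. In falling order of mean, days 2, 8, 4, 10 and 6 overlapped their neighbours, and days 0, -1 and -2 each stood apart below them.

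Rb1 97948_at was higher on day 0 than on day -2 by 0.85 ± 0.15 (adjusted p = 1.01e-04), and higher on day 2 than on day 0 by 1.25 ± 0.15 (adjusted p = 9.07e-07). The mean of days 4 to 10 (12 arrays) exceeded that of days -2 and -1 (6 arrays) by 1.60 ± 0.09, or 3.03-fold (adjusted p = 4.09e-13). The other Rb1 probe set, 161858_f_at, rose alike, by 0.91 ± 0.30, 1.45 ± 0.30 and 1.67 ± 0.18 in these comparisons (adjusted p = 0.0198, 7.50e-04 and 3.42e-08). Its first rise was not called without replicate 2 of day -2 (0.72, adjusted p = 0.105), replicate 1 of day 0 (0.90, adjusted p = 0.0505) or replicate 3 of day 0 (0.79, adjusted p = 0.0864). Nor was it called with quantile normalization (0.85, adjusted p = 0.0690) or chip lot as a fixed factor (0.94, adjusted p = 0.0701). On days -2 to 0 this probe set read 84.6 to 248.8, below the 40th percentile of 277.7, and with low values raised to that level the first rise was 0.00. Between day -2 and day -1 97948_at was the only called member, at 0.48 ± 0.15 (adjusted p = 0.0467), where 6.07% of all probe sets were called higher. That call was lost upon omission of single arrays, 16 of the 24 in turn, with the lowest change, 0.37, without replicate 3 of day -1 (adjusted p = 0.199). From day 2 to day 10 the change was -0.34 ± 0.15 (adjusted p = 0.155).

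Rbl1, which encodes p107, fell where Rb1 rose at day 0 and over the whole span, though like Rb1 it rose from day 0 to day 2. Its intensities were 1303.6, 1173.8 and 1448.9 on day -2 and 1533.8, 1372.0 and 1662.7 on day -1, then 314.9, 305.1 and 333.5 on day 0. The arrays read 630.6, 645.0 and 514.2 on day 2, 834.1, 680.9 and 439.8 on day 4, and 555.4, 587.3 and 401.7 on day 6. On days 8 and 10 they were 689.7, 532.8 and 500.0, and 454.1, 327.6 and 636.9. The 6 proliferating arrays lay above all 18 later ones, and day 0 lay below day 2 without overlap. Days 4, 2, 8, 6, 10 and 0, in falling order of mean, overlapped their neighbours.

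Rbl1 was lower on day 0 than on day -2 by -2.04 ± 0.24 on the log2 scale, a 4.11-fold difference (adjusted p = 5.12e-07), and than on day -1 by -2.26 ± 0.24 (adjusted p = 1.81e-07). It was higher on day 2 than on day 0 by 0.90 ± 0.24 (adjusted p = 0.00866), and by 0.92 with scan day as a fixed factor, where the call was lost (adjusted p = 0.347). Days 4 to 10 stood at -1.39 ± 0.15 relative to days -2 and -1 (adjusted p = 2.59e-08). The change from day 2 to day 10 was -0.38 ± 0.24 (adjusted p = 0.366). In these bulk cultures, fewer dividing cells and less RNA per cell cannot be told apart, for Rbl1 or for any other member.

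Rbl2, which encodes p130, the pocket protein known to accumulate in quiescent cells, fell from day -1 to day 0 like Rbl1 and was higher over the whole span like Rb1. Its intensities were 281.0, 240.3 and 211.8 on day -2, 346.4, 341.0 and 496.5 on day -1, and 252.9, 248.4 and 189.6 on day 0. They were 379.2, 444.2 and 311.3 on day 2, 694.6, 460.0 and 774.5 on day 4, and 478.6, 370.4 and 463.6 on day 6. For days 8 and 10 the values were 549.6, 497.1 and 439.3, and 428.1, 402.7 and 326.3. Day -1 overlapped with days 10, 2 and 6, so the proliferating and late arrays were not separated. In order of mean, days 4, 8, 6, -1, 10 and 2 overlapped their neighbours, and days -2 and 0 lay below day 2.

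Days 4 to 10 exceeded days -2 and -1 in Rbl2 by 0.63 ± 0.16, or 1.55-fold (adjusted p = 0.00123). With scan day as a fixed factor that change was 0.22 (adjusted p = 0.618). The largest chip lot held no array of day 4, so its late days were 6, 8 and 10, and the change there was 0.29 and not called. The fit within that lot left 3 residual degrees of freedom, with a single array on each of days -2, -1, 8 and 10. Rbl2 was lower on day 0 than on day -1 by -0.77 ± 0.25 (adjusted p = 0.0274) and higher on day 2 than on day 0 by 0.71 ± 0.25 (adjusted p = 0.0470). The earlier step was not called without replicate 3 of day -1 (-0.59, adjusted p = 0.145) or replicate 3 of day 0 (-0.63, adjusted p = 0.123). The later one was lost upon omission of 13 of the 24 arrays, each alone, with the lowest changes without replicate 3 of day 0 (0.58, adjusted p = 0.181) and replicate 2 of day 2 (0.59, adjusted p = 0.192). The change from day -2 to day 0 was -0.09 ± 0.25 (adjusted p = 0.857).

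Whether the pocket proteins changed unequally was tested on the difference of 2 probe sets within each array, with a 2-sided exact permutation test of 6 proliferating against 12 late arrays. 4 pairs were tested, with 18564 arrangements and a smallest p of 5.39e-05. Rbl2 minus Rbl1 ran from -2.77 to -1.74 (median -2.18) in proliferating arrays and from -0.96 to 0.82 (median -0.20) in late arrays. The mean difference moved by 2.02, from a change of 0.63 for Rbl2 and -1.39 for Rbl1. Rb1 minus Rbl1 moved by 2.99, from between -1.98 and -1.33 to between 0.83 and 2.00. Rbl2 minus Rb1 moved by -0.96, from between -0.83 and -0.42 to between -2.23 and -1.09. The ranges did not overlap in these 3 pairs, each with the smallest exact p of 5.39e-05 (adjusted p over 4 pairs = 7.18e-05). Without any 1 array the 3 differences stayed between 1.91 and 2.12, 2.90 and 3.04, and -1.01 and -0.91.

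**Figure D2:**
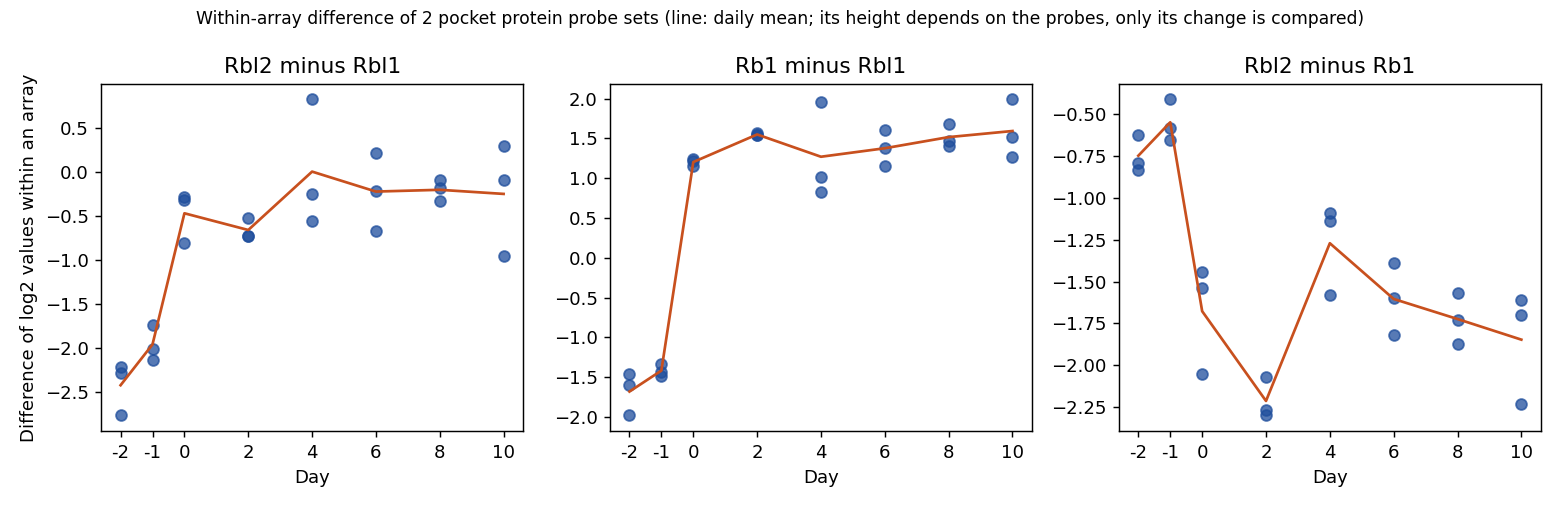
Difference of log2 intensity between 2 pocket protein probe sets within each array (vertical axes) against day (horizontal axes), with 3 arrays a day as points and the daily mean as a line. The height depends on the probes and only its change is compared; Rb1 minus Rbl1 lies below -1.33 on all 6 proliferating arrays and above 0.83 on the late ones.

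E2f1, an activator of the G1/S genes, was measured by 2 probe sets, of which 1 was called. With 102963_at its intensities were 471.4, 547.5 and 588.2 on day -2, 546.8, 491.7 and 438.3 on day -1, and 258.8, 199.9 and 114.6 on day 0. The arrays read 267.0, 360.0 and 304.6 on day 2, 160.4, 304.5 and 149.2 on day 4, and 272.0, 203.1 and 208.9 on day 6. The last days, 8 and 10, gave 208.4, 188.9 and 188.3, and 203.8, 286.4 and 212.4. The 6 proliferating arrays lay above all others, and days 2, 10, 6, 8, 4 and 0 overlapped their neighbours in that order. The probe set was lower on day 0 than on day -2 by -1.56 ± 0.32 (adjusted p = 4.50e-04), and on days 4 to 10 than on days -2 and -1 by -1.28 ± 0.20 (adjusted p = 5.30e-06). In the largest chip lot, with a single array of day -2 and none of day 4, these were -1.45 and -0.95, and neither was called.

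The other E2f1 probe set, 161427_f_at, the one with the higher mean, ran from 360.9 to 1064.6 over the 24 arrays, and its days all overlapped their neighbours. It gave -0.76 ± 0.32 from day -2 to day 0 (adjusted p = 0.0781) and -0.34 ± 0.20 over the whole span (adjusted p = 0.149). The 2 E2f1 probe sets correlated at 0.264 over the 24 arrays, against 0.956 for those of Rb1. E2f3, another activating E2F, lay between 212.7 and 477.8 on all arrays, and in order of mean its days overlapped their neighbours. Day 0 lay below day -1 without overlap, at -0.37 ± 0.28 (adjusted p = 0.397). E2f3 changed by -0.26 ± 0.28 from day -2 to day 0 (adjusted p = 0.569) and by -0.33 ± 0.17 over the whole span (adjusted p = 0.110). With chip lot as a fixed factor the whole-span changes of E2f1 161427_f_at and E2f3 were called, at -0.67 (adjusted p = 0.0140) and -0.50 (adjusted p = 0.0318). E2f1 161427_f_at and E2f3 did not differ detectably in change (-0.01, exact permutation p = 0.943), whereas for E2f1 102963_at minus E2f3 the difference in change was -0.95 (exact permutation p = 0.00135).

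Tfdp1, the DP1 partner of the E2F factors, stepped down at day 0 and stayed down in 2 of its 3 probe sets. With 101959_r_at its intensities were 15516.6, 13339.9 and 15087.5 on day -2, 14150.4, 13852.2 and 11998.5 on day -1, and 5206.5, 5351.4 and 7055.8 on day 0. They were 7664.0, 7524.9 and 8522.9 on day 2, 5880.1, 5202.3 and 5398.6 on day 4, and 5637.0, 5573.5 and 5853.1 on day 6. Days 8 and 10 gave 4567.3, 5677.2 and 5511.2, and 4950.4, 6636.3 and 4694.9. The lowest proliferating array was above the highest later one, and day 2 stood apart from both the proliferating days and the remaining days. Days 0, 6, 4, 10 and 8 overlapped their neighbours.

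Tfdp1 101959_r_at was lower on day 0 than on day -2 by -1.33 ± 0.13 (adjusted p = 1.77e-08), and on days 4 to 10 than on days -2 and -1 by -1.36 ± 0.08, a 2.56-fold difference (adjusted p = 3.84e-13). Probe set 101958_f_at gave -1.36 ± 0.17 and -1.37 ± 0.11 (adjusted p = 1.33e-06 and 9.71e-11). Between these falls 101959_r_at rose by 0.44 ± 0.13 from day 0 to day 2 (adjusted p = 0.0138), and 101958_f_at by 0.66 ± 0.17 (adjusted p = 0.00728). The rise of 101959_r_at was not called without replicate 1 of day 0 (0.36, adjusted p = 0.0823), replicate 2 of day 0 (0.38, adjusted p = 0.0690) or replicate 3 of day 2 (0.39, adjusted p = 0.0687). It was 0.38 with chip lot as a factor (adjusted p = 0.0616) and 0.12 with scan day as one (adjusted p = 0.801). From day 2 to day 10 the 2 probe sets changed by -0.56 ± 0.13 and -0.84 ± 0.17 (adjusted p = 0.00407 and 0.00175). The fall of 101959_r_at was -0.39 with chip lot as a factor (adjusted p = 0.0875). It was -0.19 in the largest lot, which held a single array of day 10, and was not called there. The remaining Tfdp1 probe set, 97565_r_at, overlapped between days next to each other in order of mean. Its day 10 lay below day 8 without overlap, at -1.26 ± 0.36 (adjusted p = 0.375). From day -2 to day 0 this probe set was not called, at -0.71 ± 0.36 (adjusted p = 0.148). It gave -0.77 ± 0.22 over the whole span (adjusted p = 0.00457), and -0.32, not called, in the largest lot, which lacked day 4. Its change from day 2 to day 10 was -1.25 ± 0.36 (adjusted p = 0.0211), a call lost without replicate 1 or 3 of day 2 or replicate 2 or 3 of day 10 (adjusted p up to 0.0955).

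Foxm1, the forkhead activator of G2/M genes, fell in both of its probe sets. With 98306_g_at the intensities were 7611.5, 9470.1 and 7025.2 on day -2, 7760.8, 7366.7 and 6958.0 on day -1, and 4855.1, 4109.9 and 3887.3 on day 0. The arrays read 5198.3, 5165.9 and 4867.1 on day 2, 4044.4, 3037.3 and 3341.0 on day 4, and 3694.3, 4729.7 and 3943.3 on day 6. On days 8 and 10 they were 4420.7, 4386.8 and 3325.9, and 3095.0, 2825.5 and 2387.7. All proliferating arrays lay above all others, and day 2 came next without overlap. In falling order of mean, days 0, 6, 8, 4 and 10 overlapped their neighbours, though day 10 lay below day 8 without overlap.

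With 98305_at the Foxm1 intensities were 2068.6, 2367.4 and 2413.4 on day -2, 2378.1, 2204.2 and 2105.9 on day -1, and 467.9, 666.7 and 186.8 on day 0. They were 1162.9, 968.2 and 1122.8 on day 2, 264.6, 68.5 and 51.6 on day 4, and 161.7, 135.8 and 650.6 on day 6. For days 8 and 10 the values were 708.9, 425.7 and 297.1, and 546.5, 64.7 and 239.0. These include 3 arrays, 2 on day 4 and 1 on day 10, below 77, the floor to which low values were raised. The proliferating days stood above day 2, day 2 above all remaining days, and days 8, 0, 6, 10 and 4 overlapped their neighbours.

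From day -2 to day 0 Foxm1 98306_g_at changed by -0.90 ± 0.14 (adjusted p = 1.93e-05) and 98305_at by -2.55 ± 0.61 (adjusted p = 0.00212). Over the whole span they gave -1.11 ± 0.09, or 2.17-fold (adjusted p = 8.53e-11), and -3.30 ± 0.38 (adjusted p = 6.64e-08). From day 0 to day 2 neither was called, at 0.25 ± 0.14 (adjusted p = 0.244) and 1.48 ± 0.61 (adjusted p = 0.0944), although day 2 lay above day 0 without overlap in both. With scan day as a fixed factor the latter was 2.64 (adjusted p = 0.0476). From day 2 to day 4 they changed by -0.56 ± 0.14 (adjusted p = 0.00841) and -3.22 ± 0.61 (adjusted p = 7.98e-04), the latter with 2 of the 3 arrays of day 4 at the floor. The former was lost without replicate 2 of day 4, at -0.47 (adjusted p = 0.0535). From day 2 to day 10 they changed by -0.88 ± 0.14 (adjusted p = 1.23e-04) and -2.32 ± 0.61 (adjusted p = 0.0122), the latter being -1.58 without replicate 2 of day 10 (adjusted p = 0.102).

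Mybl2, which encodes B-MYB, was called in 1 of its 2 probe sets. With 100023_at its intensities were 2099.2, 2638.0 and 2420.4 on day -2, 1384.6, 1719.1 and 1698.5 on day -1, and 325.3, 431.9 and 196.6 on day 0. The arrays read 278.8, 382.8 and 446.1 on day 2, 53.6, 285.2 and 54.8 on day 4, and 85.9, 302.4 and 256.0 on day 6. The last days, 8 and 10, gave 539.2, 185.3 and 217.5, and 427.5, 193.9 and 98.8. Day -2 lay above day -1 and day -1 above every later array, and the later days overlapped their neighbours, with 2 arrays of day 4 at the floor.

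Mybl2 100023_at changed by -2.97 ± 0.55 from day -2 to day 0, a 7.86-fold fall (adjusted p = 1.43e-04), and by -2.40 ± 0.55 from day -1 to day 0 (adjusted p = 0.00177). Days 4 to 10 stood at -3.37 ± 0.33 relative to days -2 and -1 (adjusted p = 6.92e-09). No recovery was called from day 0 to day 2 (0.26 ± 0.55, adjusted p = 0.818), and the change from day 2 to day 4 was -1.61 ± 0.55 (adjusted p = 0.0524), with 2 of the 3 arrays of day 4 at the floor, and -1.26 with a pseudocount in place of the floor (adjusted p = 0.0411). The other probe set, 161160_f_at, whose mean was higher, changed by 0.30 ± 0.30 from day -2 to day 0 (adjusted p = 0.516) and by 0.25 ± 0.18 over the whole span (adjusted p = 0.257). In order of mean its days overlapped their neighbours, but day 10 lay below day 8 without overlap (-0.84 ± 0.30, adjusted p = 0.508). The 2 probe sets correlated at -0.162 over the 24 arrays.

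**Figure D3:**
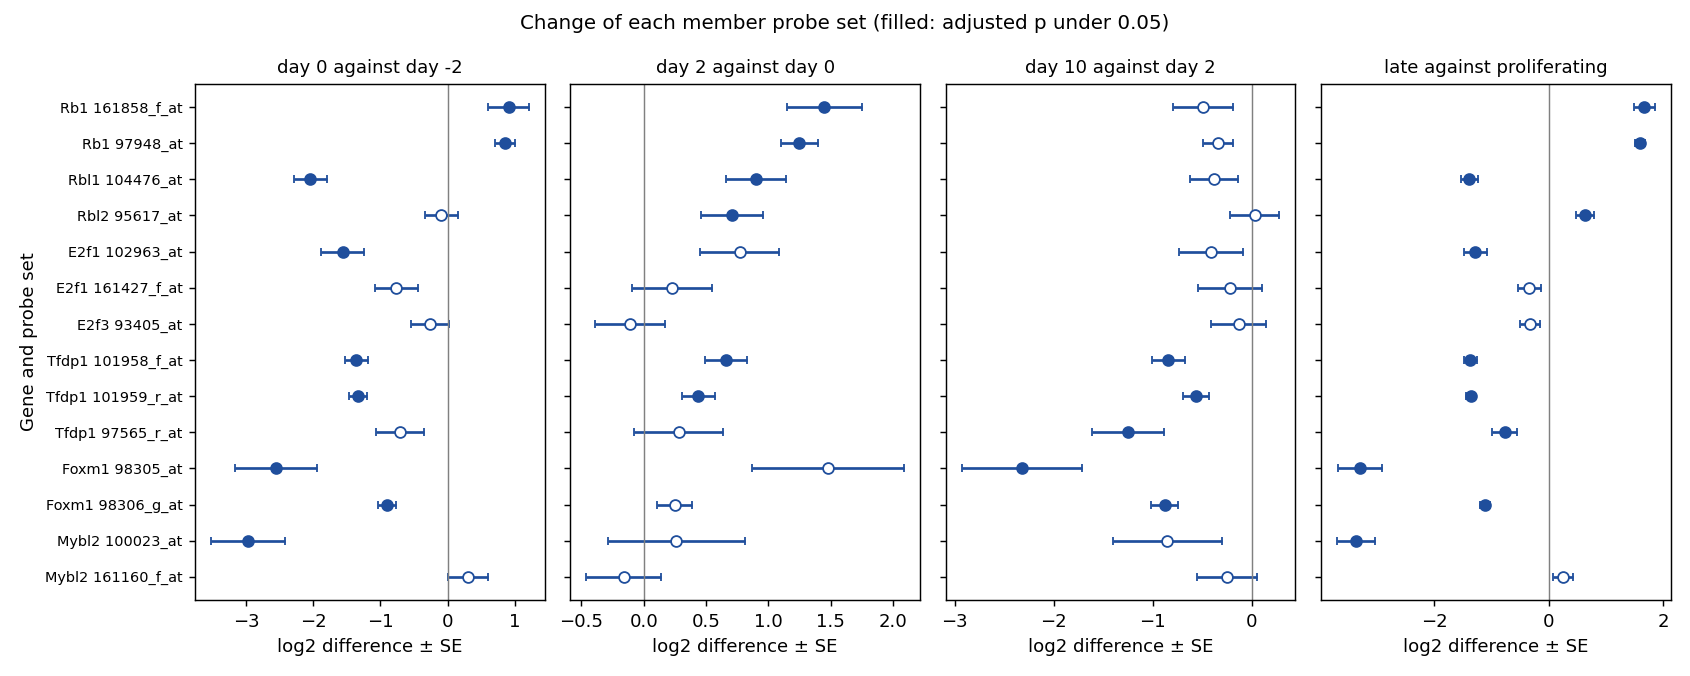
Change of each of the 14 probe sets on the log2 scale (horizontal axes, a separate scale for each panel) with its standard error as a bar, in 4 comparisons; late is the mean of days 4 to 10 and proliferating that of days -2 and -1. Filled points passed an adjusted p under 0.05; Rb1 is to the right of 0 and Rbl1 to the left in the first and last panels.

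Taking 1 probe set a gene, day 0 against day -2 gave 1 gene higher (Rb1) and 3 lower (Rbl1, Tfdp1 and Foxm1) of 8, and by probe set 2 of 14 were higher and 7 lower, E2f1 102963_at and Mybl2 100023_at being among the 7. Over all tested probe sets 16.5% were called higher and 16.1% lower, and the median change was -0.51 for the 8 genes and 0.01 for all probe sets. Day 0 against day -1 gave 4 lower, Rbl1, Rbl2, Tfdp1 and Foxm1, and 8 of the 14 probe sets, where 13.9% of all were lower. With scan day as a fixed factor none of the 4 was called by the probe set taken for it, at -2.35 for Rbl1 (adjusted p = 0.135), -1.52 for Rbl2 (adjusted p = 0.322), -0.75 for Tfdp1 101959_r_at (adjusted p = 0.138) and -0.88 for Foxm1 98306_g_at (adjusted p = 0.127), while Tfdp1 101958_f_at was still called lower. Day 2 against day 0 gave 4 higher, Rb1, Rbl1, Rbl2 and Tfdp1, and 6 of the 14 probe sets, where 11.2% of all were called higher and 10.4% lower. The median change there was 0.35 for the 8 genes and 0.00 for all. This count was 2 without replicate 1 or replicate 2 of day 0, and 1 with scan day as a fixed factor.

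Day 4 against day 2 gave 2 genes lower, Tfdp1 (-0.52 ± 0.13, adjusted p = 0.00653) and Foxm1, and 4 of the 14 probe sets, where 7.56% of all were lower. With chip lot as a fixed factor Tfdp1 gave -0.43 there (adjusted p = 0.0502). Day 10 against day 2 gave the same 2 genes lower and 5 of the 14 probe sets, where 6.52% of all were called higher and 7.26% lower, with a median of -0.30 for the 8 genes and 0.00 for all. After day 4 no member was called between successive days. Called there were 0.389% of all probe sets from day 4 to day 6, 0.0471% from day 6 to day 8 and 0% from day 8 to day 10. At an unadjusted p under 0.05 in limma, 2, 0 and 3 of the 14 probe sets passed in these steps, and 887, 876 and 664 of all 8484. Over the whole span 2 genes were higher (Rb1 and Rbl2) and 3 lower (Rbl1, Tfdp1 and Foxm1), and by probe set 3 of 14 were higher and 8 lower, where 28.7% of all were called higher and 28.1% lower. The median was -0.33 for the 8 genes and 0.07 for all. The comparisons share arrays and are not independent of each other.

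The arrays were made from 5 chip lots and read on 11 scan days. Numbered by date, the day 0 arrays were read on scan days 1, 2 and 3, and those of days -2 and -1 on scan days 8 to 11. No scan day held both, so the changes to day 0 from the proliferating days could not be compared within a scan day. Lot 1, the largest, held 2 proliferating and 4 late arrays and lot 5 held 4 and 2. The late arrays were of days 6, 8 and 10 in lot 1 and of days 4 and 8 in lot 5. The late minus proliferating change within a lot, a plain mean over its arrays, therefore covered only part of the late days. Within lots 1 and 5 it was 1.35 and 1.70 for Rb1 97948_at, -1.73 and -1.24 for Rbl1, 0.30 and 0.69 for Rbl2, and -1.20 and -1.40 for Tfdp1 101959_r_at. It was -0.99 and -1.31 for Foxm1 98306_g_at, -3.11 and -3.95 for Foxm1 98305_at, -3.49 and -2.99 for Mybl2 100023_at, and -0.95 and -1.18 for E2f1 102963_at. Each of these probe sets kept its direction in both lots. When scan day entered the fit as a fixed factor, leaving 6 degrees of freedom, 22 of the 44 called changes of the 14 probe sets held. Those from day -2 to day 0 lost there were Rbl1 at -2.19 (adjusted p = 0.0598), Rb1 97948_at at 0.86 (adjusted p = 0.154), Rb1 161858_f_at at 0.72 (adjusted p = 0.721), E2f1 102963_at at -2.12 (adjusted p = 0.116) and Mybl2 100023_at at -2.95 (adjusted p = 0.209). With scan day as a random block all 44 held, and 3 more changes passed, E2f1 161427_f_at from day -2 to day 0 at -0.83 (adjusted p = 0.0434), and from day 2 to day 4 Mybl2 100023_at at -1.76 (adjusted p = 0.0274) and Rbl2 at 0.73 (adjusted p = 0.0461).

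Genes known to be switched on by E2F at the G1/S transition fell together with Rbl1, Tfdp1 and E2f1 102963_at. Of 36 listed genes 31 were tested, and 29 of them were lower on day 0 than on day -2, where 16.1% of all probe sets were called lower. The median was -1.75 for the list and 0.01 for all probe sets. Among the 29, Tk1, thymidine kinase, changed by -2.70 ± 0.14 (adjusted p = 4.08e-13) and Prim1, the small DNA primase subunit, by -2.62 ± 0.32 (adjusted p = 7.46e-07). From day 0 to day 2, 12 rose and 2 fell (median 0.55), where 11.2% of all probe sets were called higher and 10.4% lower. Rising were Prim2, the large primase subunit, by 1.19 ± 0.33 (adjusted p = 0.0106) and Rrm1, the large subunit of ribonucleotide reductase, by 1.06 ± 0.22 (adjusted p = 9.43e-04). The falling genes were Cdt1, an origin licensing factor, at -0.49 ± 0.15 (adjusted p = 0.0220) and Rrm2, the small reductase subunit, at -0.47 ± 0.13 (adjusted p = 0.0110).

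From day 2 to day 4, 18 of these 31 genes fell, with a median of -0.71 against 0.04 for all, and from day 2 to day 10, 16 fell (median -0.59). Of all probe sets 7.56% were called lower in the former comparison and 7.26% in the latter. Over the whole span 30 fell and 1 rose, with a median of -2.02 against 0.07 for all, of which 28.1% were called lower and 28.7% higher. Cdc6, which loads the replicative helicase, changed by -2.75 ± 0.11 (adjusted p = 7.37e-16) and Tk1 by -2.61 ± 0.08 (adjusted p = 7.82e-18). The riser was Msh6, a mismatch repair gene, at 0.88 ± 0.26 (adjusted p = 0.00552).

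The list of FOXM1 and B-MYB targets of the G2/M transition held 33 genes, of which 25 were tested. All 25 were lower on day 0 than on day -2, with a median of -1.90 against 0.01 for all probe sets, of which 16.1% were called lower. Ect2, an exchange factor needed for cytokinesis, changed by -2.84 ± 0.32 (adjusted p = 2.31e-07) and Top2a, topoisomerase II alpha, by -2.48 ± 0.19 (adjusted p = 6.54e-10). From day 0 to day 2, 17 rose (median 0.63 against 0.00 for all probe sets), where 11.2% of all were called higher. Among the 17, Ect2 rose by 1.20 ± 0.32 (adjusted p = 0.00842) and Ube2c, a ubiquitin-conjugating enzyme of the anaphase-promoting complex, by 1.01 ± 0.30 (adjusted p = 0.0170).

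After day 2 these G2/M genes fell again, 22 of 25 from day 2 to day 4 (median -1.10) and 22 of 25 from day 2 to day 10 (median -1.26). In these comparisons 7.56% and 7.26% of all probe sets were called lower. Mad2l1, a spindle checkpoint gene, changed by -1.84 ± 0.23 in the first of these (adjusted p = 5.44e-06), and Kif20a, a mitotic kinesin, by -1.91 ± 0.16 in the second (adjusted p = 1.92e-08). Over the whole span all 25 were lower, with a median of -2.26 against 0.07 for all probe sets, of which 28.1% were called lower. Bub1, a checkpoint kinase, changed by -2.96 ± 0.14 (adjusted p = 6.10e-15). Relative to day -2 the median of the list stood at 0.02 on day -1, -1.90 on day 0, -1.26 on day 2, -2.47 on day 4 and -2.50 on day 10. The G1/S list stood at -0.09, -1.75, -1.15, -2.04 and -1.94 on the same days. The members and both lists were chosen with earlier results of these arrays known, so these counts are descriptions.

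**Figure D4:**
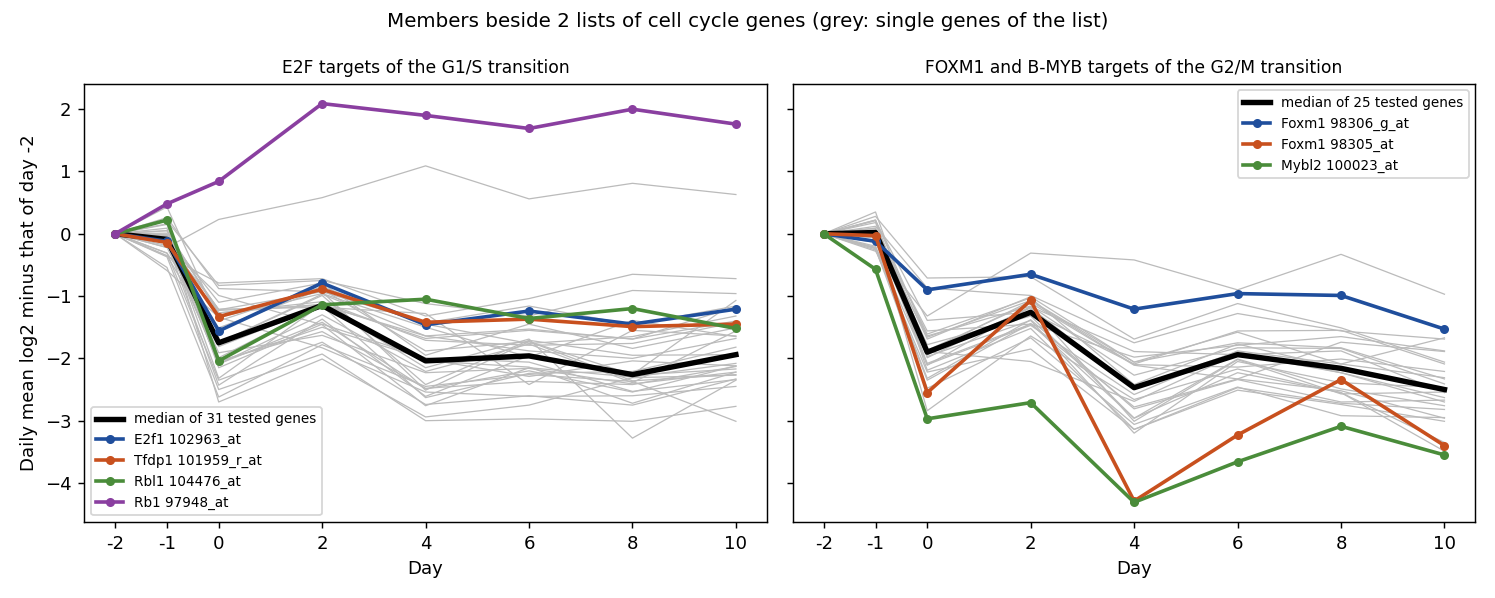
Daily mean log2 intensity minus that of day -2 (vertical axis) against day (horizontal axis) for members, in colour, and for the tested genes of 2 lists, in grey with their median in black. The left panel holds 31 G1/S targets of E2F with E2f1, Tfdp1, Rbl1 and Rb1 (for E2f1, Tfdp1 and Mybl2 the probe set with the lowest p among days), the right panel 25 G2/M targets of FOXM1 and B-MYB with Foxm1 and Mybl2; both medians drop at day 0, rise at day 2 and drop again at day 4.

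A list of the cyclins and kinases that phosphorylate pocket proteins, together with regulators of those kinases, held 15 genes, of which 11 were tested. From day -2 to day 0, 1 rose and 7 fell, where 16.5% of all probe sets were called higher and 16.1% lower. Ccnd1, cyclin D1, fell by 1.39 ± 0.20 (adjusted p = 6.41e-06) and Ccnd3, cyclin D3, rose by 1.05 ± 0.10 (adjusted p = 1.54e-08). From day 0 to day 2, 2 genes were called, both higher, where 11.2% of all probe sets were called higher. They were Cdk2, which pairs with cyclins E and A, at 1.19 ± 0.18 (adjusted p = 2.16e-05) and Ccnd3 at 0.97 ± 0.10 (adjusted p = 8.53e-08). Over the whole span 2 rose and 8 fell, with a median of -0.81 against 0.07 for all, of which 28.7% were higher and 28.1% lower. Ccnd1 changed by -2.50 ± 0.12 (adjusted p = 1.72e-14), Cks1b, a kinase subunit, by -2.17 ± 0.11 (adjusted p = 4.74e-14), and Ccnd3 by 1.79 ± 0.06 (adjusted p = 2.40e-17). The second riser was Cdk7, of the CDK-activating kinase, at 0.43 ± 0.15 (adjusted p = 0.0180).

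Of 7 listed inhibitors of cyclin-dependent kinases 5 were tested, and 3 rose from day 0 to day 2, where 11.2% of all probe sets were called higher. Cdkn1c (p57) rose by 2.96 ± 0.25 (adjusted p = 3.56e-09), Cdkn2d (p19) by 2.61 ± 0.32 (adjusted p = 9.85e-07) and Cdkn1a (p21) by 2.24 ± 0.21 (adjusted p = 1.81e-08). The step with the steepest rise of Rb1 was the same, day 0 to day 2. Cdkn2d had fallen by 2.38 ± 0.32 from day -2 to day 0 (adjusted p = 2.26e-06). Over the whole span Cdkn1c and Cdkn1a were higher, by 2.60 ± 0.16 and 2.09 ± 0.13 (adjusted p = 7.74e-13 and 1.47e-12), and Cdkn2c (p18) was lower at -0.47 ± 0.09 (adjusted p = 1.41e-04).

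Of 18 listed partners and corepressors of pocket proteins 11 were tested, and over the whole span 9 fell and 1 rose, with a median of -0.58 against 0.07 for all and with 28.1% of all probe sets called lower and 28.7% higher. Ezh2, the histone H3 lysine methyltransferase of the Polycomb complex, changed by -1.70 ± 0.09 (adjusted p = 7.25e-14). Id2, an inhibitor of helix-loop-helix factors that binds pRB, changed by -1.68 ± 0.10 (adjusted p = 8.04e-13), after rising by 0.61 ± 0.16 from day -2 to day 0 (adjusted p = 0.00524). The riser was Sin3b, a scaffold of histone deacetylase complexes, at 0.33 ± 0.06 (adjusted p = 8.16e-05). Of 7 other E2F and DP genes listed 2 were tested, and over the whole span E2f8, an atypical repressor, changed by -1.08 ± 0.10 (adjusted p = 1.90e-09) and E2f5, a repressor bound by p130, by -0.90 ± 0.26 (adjusted p = 0.00540). Of 7 genes of the MuvB core and MYB family 3 were tested, and all 3 fell over the whole span, Lin9 at -1.31 ± 0.13 (adjusted p = 6.04e-09), Mybl1 at -0.84 ± 0.32 (adjusted p = 0.0287) and Rbbp4 at -0.43 ± 0.06 (adjusted p = 9.73e-07).

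The genes whose log2 values ran most like each member over the 24 arrays were taken by Pearson correlation, as a description. Arrays of a day, lot or scan are not independent points. For Rb1 they were Ndrg4 (r = 0.983), Aamdc (0.969) and Tnnc2 (0.967), and for Rbl1 they were Uchl5 (0.916), Tom1l1 (0.908) and Cmc2 (0.900). For Rbl2 they were Sesn1 (0.869), Tbl1xr1 (0.857) and Hspa4l (0.828). Tfdp1 101959_r_at ran most like Cdca8 (0.969), Ccnf (0.962) and Topbp1 (0.961), and Foxm1 98306_g_at most like Iqgap3 (0.952), Ccnb2 (0.939) and Kif20a (0.937). The members with no called day had lower values. E2f3 stood with Pdxk (0.776), Syk (0.743) and Itga3 (0.729), E2f1 161427_f_at with Cdc23 (0.673), Irs1 (0.666) and Mrpl38 (0.652), and Mybl2 161160_f_at with Pou2f3 (0.779), Gsg1 (0.756) and Sult2b1 (0.749).

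The labelled cell type was checked against marker genes. Of the 6 skeletal muscle markers, Des, Myod1, Myog and Myf5 were above the floor on all 24 arrays, and the summed intensity of the 6 ran from 15396 to 17032 on days -2 and -1 and from 48872 to 63185 on days 4 to 10. The log2 level of Myog, myogenin, was 8.69 ± 0.38 (SD, n = 3) on day -2 and 14.24 ± 0.51 on day 0. Myf5 changed by -1.19 ± 0.27 from day -2 to day 0 (adjusted p = 0.00112) and by -1.55 ± 0.16 over the whole span (adjusted p = 2.00e-08), and Myod1 by 1.15 ± 0.10 from day -2 to day 0 (adjusted p = 2.79e-09) and by -1.04 ± 0.10 from day 0 to day 2 (adjusted p = 2.10e-08). Embryonic myosin Myh3 stood at the floor until day -1 and at 13.94 ± 0.06 on day 2. Ckm was at the floor on 5 of the 24 arrays. Of the macrophage markers Lyz2 was at the floor on 24 arrays, Ptprc on 22 and Adgre1 on 17. Cd68 was there on 2 and Csf1r on 0, and they reached 507.8 and 507.4. Of the endothelial markers Cdh5 was at the floor on 23 arrays, Vwf on 22 and Tek on 16. Kdr was there on 3 and Pecam1 on 0, and they reached 455.9 and 677.9. The summed intensity of 5 macrophage markers was 518 to 909 on days -2 and -1 and 406 to 1061 on days 4 to 10, and that of 5 endothelial markers was 253 to 1064 and 489 to 1456. That of the 3 adipocyte markers on the array was 871 to 2295 and 1460 to 3945. Of these Lep rose by 0.69 ± 0.17 over the whole span (adjusted p = 0.00108), and Adipoq and Fabp4 reached at most 234.1 and 229.0 and were too dim to be tested. RNA integrity, read as 3' over 5' signal, ranged from 0.764 to 0.954 for Gapdh, with its highest daily mean of 0.884 on day -2. The beta-actin ratio ranged from 1.011 to 1.172, with its lowest daily mean of 1.033 on day 0 and its highest of 1.141 on day 4. The part of these markers and of RNA integrity in the changes of the members was not tested.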

How the data were processed

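Total RNA of C2C12 cells was measured on 24 arrays, 3 on each of 8 days. The authors deposited 1 linear intensity for each probe set on each array, and their way of summarising the probes is not given in the sources used here. With 2% of values trimmed at either end, array means lay at 1500.85 to 1500.98, so no scaling was added. Names came from the platform annotation, with symbols updated from RefSeq.

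Low values were raised to the 20th percentile of the table, 77, before the log2 step, and 15.7% to 25.6% of an array's values lay there. Of 12422 probe sets, 8484 exceeded the 40th percentile, 277.7, in the mean of 1 day or more and were tested. One model of the 8 days was fitted with limma 3.58.1 (R 4.3.3; lmFit, contrasts.fit, eBayes with trend = TRUE), with 16 residual degrees of freedom. All p-values are 2-sided and adjusted by Benjamini-Hochberg over the tested probe sets. The model was tested on simulated data.

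The members and the gene lists were chosen with earlier results of these data known. Named were all 8 members, up to 2 rising and 2 falling called genes of a list in a comparison, the 3 genes that correlated best with each member, and Myog, Myh3, Cdkn1a and Ccnd1. Recomputed settings were the normalization, floor, filter, variance trend, chip lot, scan day, replicate block and each array left out. Python 3.11.15 with matplotlib 3.10.9 drew the figures.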

Additional observations from a re-analysis of the deposited data

How the results depend on the processing

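Of the 44 called changes of the 14 probe sets in 10 comparisons, 36 held without any 1 of the 24 arrays, and all 11 called over the whole span did. The filters, the variance trend and scan day as a random block kept all 44, quantile normalization 41, a floor at the 40th percentile 40, chip lot as a fixed factor 39, and scan day as a fixed factor 22. The largest chip lot alone kept 28 of the 40 that it could give. With scan day as a fixed factor the number of members called was 2 in place of 4 for day 0 against day -2, 1 in place of 4 for day 2 against day 0, 3 in place of 5 for any of the 8 days, and 3 in place of 11 summed over the successive steps. In the largest chip lot it was 2 for day 2 against day 0 and 1 in place of 2 for day 10 against day 2, and with chip lot as a fixed factor the latter was also 1. Leaving out each array gave 2 to 4 members for day 2 against day 0 and 8 to 11 for the successive steps. The difference in change between E2f1 and E2f3 was -0.95 with E2f1 102963_at (exact permutation p = 0.00135) and -0.01 with 161427_f_at. Scan day as a fixed factor left 6 residual degrees of freedom and the largest chip lot 3, against 16 in the main fit. No scan day held arrays of both day 0 and the proliferating days. Why calls were lost in these settings was not tested.

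Over all probe sets, fixed scan-day terms gave 719 calls for day 0 against day -2 (2761 without it), 697 for day 2 against day 0 (1830), 298 for day 10 against day 2 (1169), 2906 for the whole span (4820), 137 for day -1 against day -2 (788), 274 for day 0 against day -1 (2189) and 502 for day 4 against day 2 (1183). The largest chip lot gave 1746 for day 0 against day -2, 508 for day 10 against day 2, 67 for day -1 against day -2 and 1268 for day 0 against day -1. Day -1 against day -2 gave 499 without replicate 1 of day -1, and day 4 against day 2 gave 760 without replicate 2 of day 2. Day 6 against day 4 gave 11 to 58 calls over the settings against 33, day 8 against day 6 gave 0 to 12 against 4, and day 10 against day 8 gave 0 to 6 against 0.

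Arrays with the same replicate number deviated from their day means with correlations of -0.194 to 0.324 (median 0.0317, 84 pairs). The median was -0.0174 for different numbers. The labels did not state that the numbers pair arrays across days, so the main fit held no replicate block. As a hint from the data, not the design, 17 of 24 arrays correlated best, on average, with arrays of their own number. With the replicate block 43 of the 44 calls held and the lost one was Rb1 97948_at between day -2 and day -1 (adjusted p = 0.0503).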
